A study of Mus musculus with 16 samples.

Results

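Axon guidance ligands and receptors of the semaphorin, plexin, neuropilin, ephrin, Eph, Slit, Robo, netrin and Unc5 families were followed in the left and right medial prefrontal cortex (mPFC) of control, resilient and susceptible mice. Members were taken by gene symbol, as every gene of the array whose symbol starts with one of these family names. This gave 65 genes of the 16593 named genes on the array, carried by 97 probes. Of these, 33 had a probe detected on all 16 arrays (detection p of 0.05 or less) and were tested, among 8419 genes tested in all. A further 18 members were detected on 1 to 15 arrays and 14 on none.

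Guidance cues are secreted or membrane-bound ligands that steer growing axons by attraction or repulsion through receptors on the growth cone. Semaphorins act through plexins, with neuropilins as co-receptors of the secreted class 3 semaphorins, ephrins through Eph receptor tyrosine kinases, Slits through Robo receptors, and netrins through Dcc and the Unc5 receptors. In the adult cortex many of these genes stay expressed and are known for roles in spine and synapse remodelling, in vessels and in glia.

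Male C57BL/6 mice (C57BL/6 J in the methods), 8 weeks old when defeat began, were defeated by aggressive CD-1 mice for 10 days, and were then sorted by a social interaction test into resilient mice, which kept their interest in a CD-1 mouse, and susceptible mice, which avoided it. Control mice of the same strain were housed alike without defeat, and no group carried a stated allele or drug. Left and right mPFC were dissected apart on the day after the test, equal amounts of RNA from individual mice were pooled (7 mice per the labels, whereas the methods give 8 control, 8 resilient and 7 susceptible mice), and the RNA was hybridized to 2 control, 3 resilient and 3 susceptible MouseRef-8 v2 arrays per side. Since the RNA was pooled, the adjusted p-values below measure the spread between arrays and not between mice. Whether the arrays of a group held separate pools is not stated.

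Mean array signal was 505 to 567 in control, 376 to 552 in resilient and 380 to 502 in susceptible mice, and the first 8 array columns of the signal table held all 4 control arrays and replicate 1 of every stressed group. Of 7 listed neuronal markers, 5 were detected on every array, among them Rbfox3, Syt1 and Slc17a7, while Snap25 was detected on none. Mean log2 signals of the 33 tested members lay between 6.73 and 10.50. Their signal spanned a median of 0.37 on the log2 scale over the 16 arrays, and that of all tested genes 0.33. In tissue RNA, fewer cells of a type and less RNA per cell cannot be told apart.

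In susceptible mice, 5 of the 33 tested members differed between left and right at an adjusted p below 0.05 (here termed called), which is 15.2%, where 5.21% of all tested genes did. Higher on the right were 4 members, the semaphorin Sema5a, its receptor Plxnb3, the netrin receptor Unc5b and the semaphorin co-receptor Nrp1. The share of all genes called higher on the right was 2.45%. The ephrin Efna5 alone was higher on the left, a direction called for 2.77% of all genes. An unadjusted p below 0.05 was reached by 12 members (36.4%) and by 16.7% of all genes. For 11 members every left array lay on one side of every right array, as it did for 20.1% of all genes. The median log2 left/right ratio of the members was -0.02 and that of all genes 0.00355, and its median size was 0.10 for members and 0.065 for all genes.

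No member was called between left and right in resilient mice, where 0.0356% of all genes were called, nor in control mice, where 0.0119% were. An unadjusted p below 0.05 was reached by 4 members (12.1%) and 4.37% of all genes in resilient mice, and by 2 members (6.06%) and 4.99% of all genes in control mice. In resilient mice the lowest left minus right value belonged to the plexin Plxnb1 (-0.17 ± 0.06 SE, adjusted p = 0.99) and the highest to the netrin receptor Unc5c (0.16 ± 0.07, adjusted p = 0.99). In control mice they belonged to the ephrin Efnb1 (-0.18 ± 0.09, adjusted p = 0.981) and the Slit receptor Robo1 (0.21 ± 0.08, adjusted p = 0.79).

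**Figure D1:**
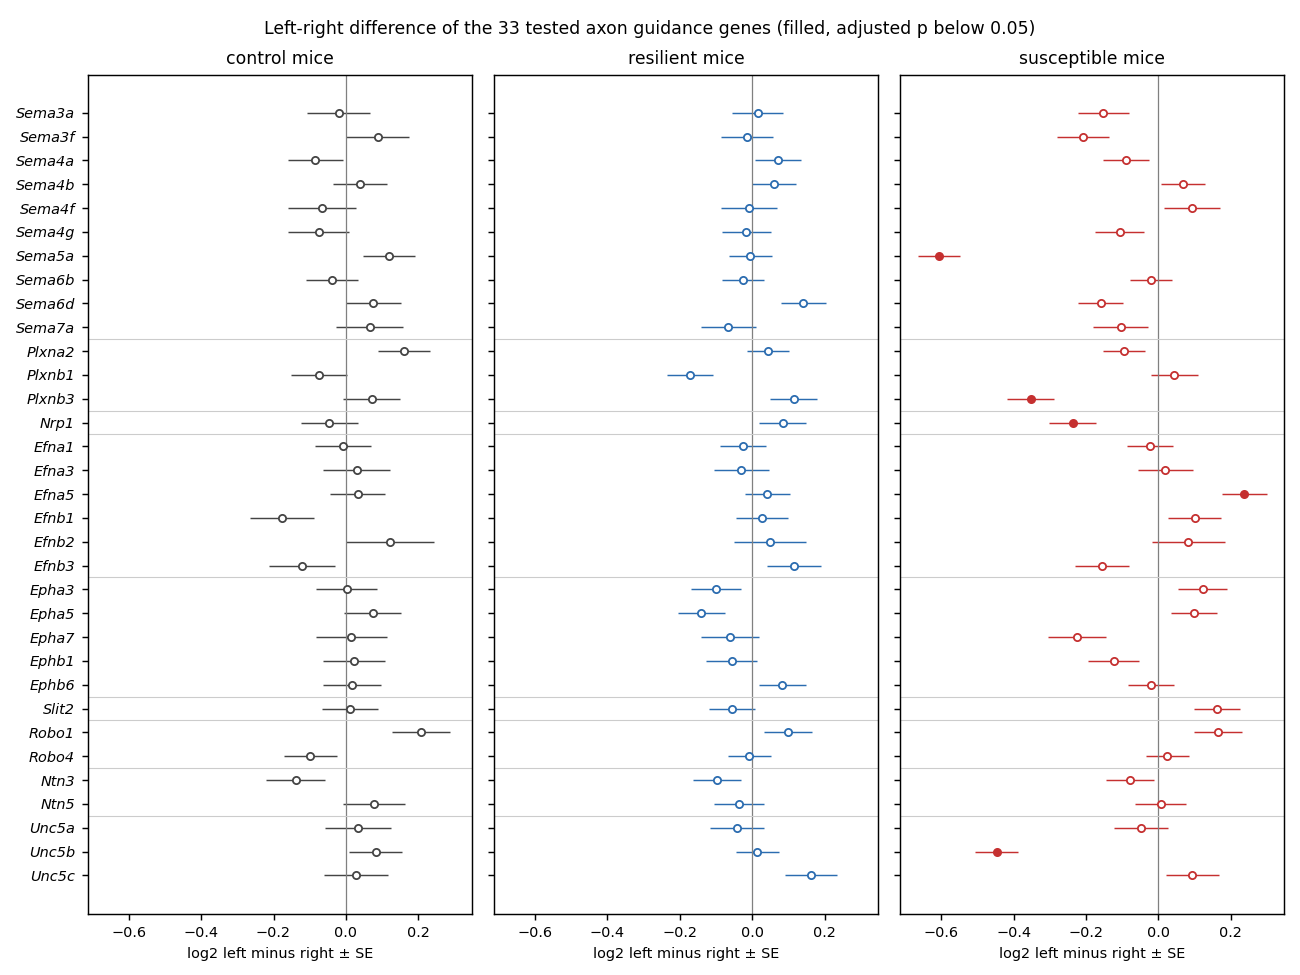
Log2 left minus right signal with its standard error from the limma fit for each of the 33 tested members, by family, in control, resilient and susceptible mice. Filled points are called, and all 5 lie in susceptible mice, with Sema5a at -0.61, Unc5b at -0.45, Plxnb3 at -0.35, Nrp1 at -0.24 and Efna5 at 0.24.

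Sema5a, Plxnb3 and Unc5b, the members with the lowest left/right ratios in susceptible mice, were higher on the right together, so their promoter windows are shown. The windows were defined as 250 bases before to 50 bases after a gene start, 5′ to 3′ on the gene's strand (RefSeq, GRCm38.p6). Of the 33 tested members, 31 had one. The windows shown lie at chr15:32244563-32244862 on the plus strand (Sema5a), at chrX:73756853-73757152 on the plus strand (Plxnb3) and at chr10:60831532-60831831 on the minus strand (Unc5b). The Plxnb3 window lies wholly past the annotated start of the gene, chrX:73756556. It is therefore sequence from inside the annotated gene and holds no base before that start. Capitals mark matches, on either strand, to the GC box GGGCGG, the E-box CAGCTG and the Sox site ACAAAG.
Sema5a: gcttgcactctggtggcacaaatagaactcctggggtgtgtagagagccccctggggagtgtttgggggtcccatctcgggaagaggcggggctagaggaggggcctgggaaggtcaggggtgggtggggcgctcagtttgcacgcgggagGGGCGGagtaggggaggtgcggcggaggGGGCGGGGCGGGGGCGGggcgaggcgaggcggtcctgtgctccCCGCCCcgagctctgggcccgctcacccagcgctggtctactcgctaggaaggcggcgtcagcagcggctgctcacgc
Plxnb3: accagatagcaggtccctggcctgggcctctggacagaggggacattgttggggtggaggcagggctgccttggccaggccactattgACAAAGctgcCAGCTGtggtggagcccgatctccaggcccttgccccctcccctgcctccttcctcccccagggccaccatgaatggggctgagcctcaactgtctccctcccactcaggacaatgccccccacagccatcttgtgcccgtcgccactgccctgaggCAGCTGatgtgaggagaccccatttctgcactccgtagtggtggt
Unc5b: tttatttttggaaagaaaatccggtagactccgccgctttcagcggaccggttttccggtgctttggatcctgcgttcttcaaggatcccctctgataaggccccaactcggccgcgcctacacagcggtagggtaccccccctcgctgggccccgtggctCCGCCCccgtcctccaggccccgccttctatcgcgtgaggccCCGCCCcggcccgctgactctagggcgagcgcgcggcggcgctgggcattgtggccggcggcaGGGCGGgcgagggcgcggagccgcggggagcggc

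The GC box had 5 matches, partly overlapping, in the Sema5a window, 3 in the Unc5b window and none in the Plxnb3 window. It was found in 21 of the 31 member windows and in 35.9% of the 27025 windows of this length. The 31 belong to genes detected on every array and the 27025 to genes detected here or not, so the sets are unlike. The Plxnb3 window held 2 E-box matches and 1 Sox match, motifs found in 16.1% and 18.7% of all windows and in 5 and 4 of the member windows. Neither CCAAT nor TATAAA, which 37.9% and 14.2% of all windows held, occurred in these 3 windows. No one of these motifs was found in all 3 windows, and a match is a run of letters and not a known binding site.

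Sema5a encodes a transmembrane semaphorin with thrombospondin repeats that can repel or attract axons. In susceptible mice its log2 signal was 9.86, 9.93 and 9.84 on the left arrays and 10.50, 10.52 and 10.44 on the right arrays. In resilient mice it was 10.21, 10.23 and 10.34 on the left and 10.26, 10.26 and 10.28 on the right. In control mice it was 10.04 and 9.95 on the left and 9.85 and 9.90 on the right. Susceptible right arrays were the highest of all 16, resilient arrays of both sides came next, and susceptible left arrays lay with the controls. The left minus right difference was -0.61 ± 0.06 (SE, adjusted p = 6.0e-08) in susceptible mice, -0.00 ± 0.06 in resilient mice and 0.12 ± 0.07 in controls. A second detected probe of Sema5a gave -0.64 ± 0.08 in susceptible mice (adjusted p = 2.6e-06 over all detected probes).

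Plxnb3 encodes plexin-B3, a receptor of Sema5a that in the mature mouse brain is known from oligodendrocytes. Its log2 signal in susceptible mice was 6.88, 6.87 and 7.02 on the left and 7.27, 7.28 and 7.28 on the right. It was 7.26, 7.34 and 7.33 on the left and 7.21, 7.29 and 7.08 on the right in resilient mice. In control mice it was 7.15 and 7.24 on the left and 7.06 and 7.18 on the right. The 3 susceptible left arrays were the lowest of all 16, while left and right arrays overlapped in resilient and in control mice. Left minus right was -0.35 ± 0.06 (adjusted p = 6.1e-04) in susceptible mice, 0.11 ± 0.06 in resilient mice and 0.07 ± 0.08 in controls. The raw signal of Plxnb3 was low, at 108 to 176.2, where members not detected on every array reached 141.9. Over the alternative runs its susceptible left minus right value ranged from -0.70 to -0.22.

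Unc5b encodes a netrin receptor that mediates repulsion and is also known from vessels. Its log2 signal in susceptible mice was 7.40, 7.23 and 7.33 on the left and 7.81, 7.77 and 7.73 on the right. It was 7.69, 7.64 and 7.71 on the left and 7.72, 7.60 and 7.68 on the right in resilient mice. Control arrays read 7.52 and 7.54 on the left and 7.45 and 7.45 on the right. Susceptible arrays thus held both the highest and the lowest values of Unc5b, with the controls between them and the resilient arrays overlapping across sides. Left minus right was -0.45 ± 0.06 (adjusted p = 9.7e-06) in susceptible mice, 0.01 ± 0.06 in resilient mice and 0.08 ± 0.07 in controls.

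Nrp1 encodes neuropilin-1, the co-receptor of Sema3a and a receptor of vascular endothelial growth factor. Its log2 signal in susceptible mice was 9.96, 9.82 and 9.76 on the left and 10.16, 9.99 and 10.10 on the right. In resilient mice it was 10.10, 10.03 and 9.99 on the left and 9.95, 9.93 and 9.99 on the right, and in control mice 9.91 and 9.76 on the left and 9.90 and 9.87 on the right. The susceptible sides did not overlap, although the highest left and the lowest right array lay close together. Left minus right was -0.24 ± 0.06 (adjusted p = 0.027) in susceptible mice, and the second probe of Nrp1 gave -0.44 ± 0.07 (adjusted p = 9.6e-05). At the first probe the call was lost without susceptible left replicate 2 or 3 (adjusted p = 0.0942 and 0.148) and without right replicate 1 or 3 (0.144 and 0.0858). It was also lost under normexp background correction and when only the groups compared were fitted.

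Efna5 encodes ephrin-A5, a membrane-anchored ligand that repels axons bearing EphA receptors. Its log2 signal in susceptible mice was 10.68, 10.51 and 10.65 on the left and 10.32, 10.42 and 10.38 on the right. In resilient mice it was 10.41, 10.49 and 10.50 on the left and 10.35, 10.51 and 10.41 on the right, and in control mice 10.58 and 10.61 on the left and 10.60 and 10.52 on the right. Susceptible left arrays spanned the control range. The susceptible right arrays and the resilient arrays of both sides lay below every control array. Left minus right was 0.24 ± 0.06 (adjusted p = 0.0216) in susceptible mice. The call was lost without susceptible left replicate 1 or 3 (adjusted p = 0.106 and 0.0876) and without right replicate 1 or 3 (0.108 and 0.0557). It was also lost when only the groups compared were fitted.

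For each member called between the sides in susceptible mice, the left arrays lay apart from the right arrays. Any part of the signal table therefore had to give the same sign. Among the last 8 array columns, with 2 susceptible arrays per side, left minus right was -0.59 for Sema5a, -0.47 for Unc5b, -0.33 for Plxnb3, -0.25 for Nrp1 and 0.18 for Efna5. Among the first 8, with 1 susceptible array per side and no test, it was -0.64, -0.41, -0.39, -0.20 and 0.36 for these genes. In a fit of the last 8 arrays alone the calls of Nrp1 and Efna5 were lost. Those of Sema5a, Unc5b and Plxnb3 were kept.

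**Figure D2:**
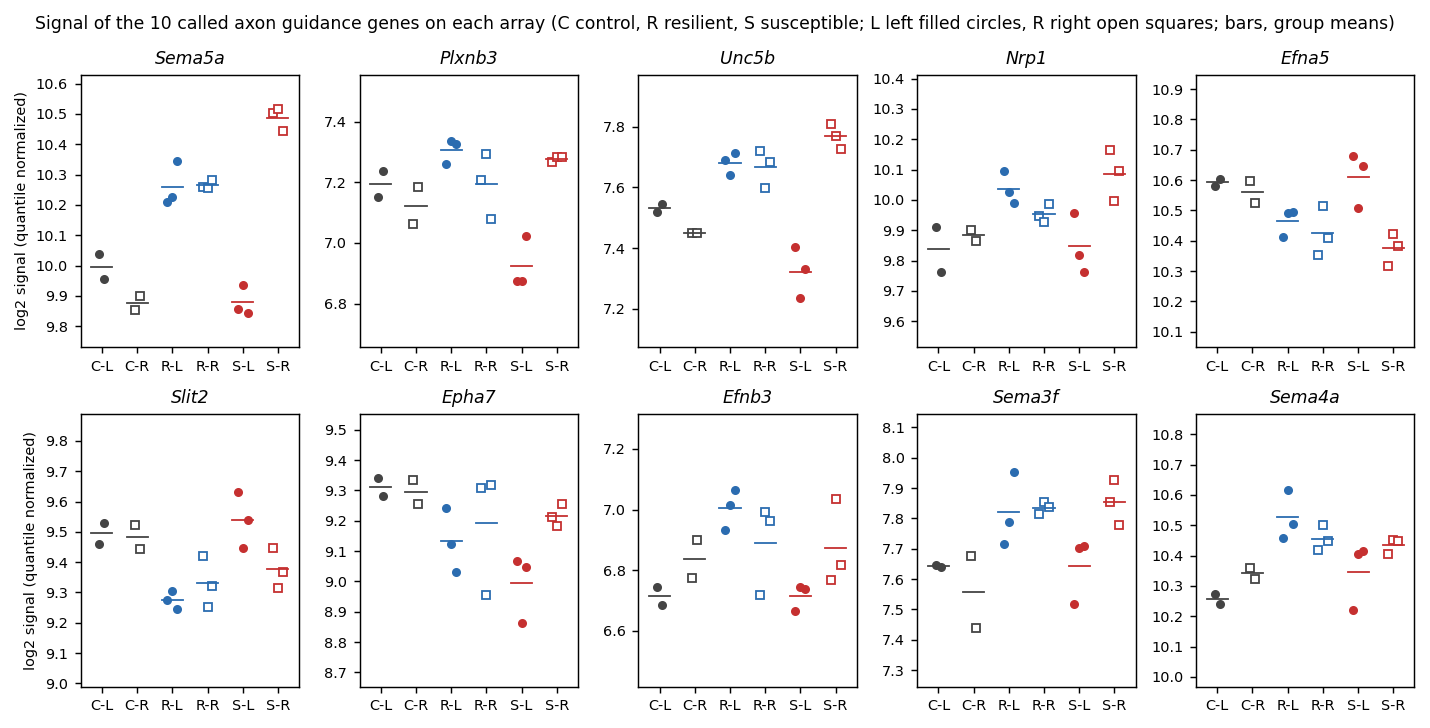
Log2 signal of the 10 members called in at least 1 comparison on each of the 16 arrays, with horizontal bars at the group means and a separate vertical scale for each gene. Susceptible right arrays are the highest for Sema5a (10.44 to 10.52) and Unc5b (7.73 to 7.81), and susceptible left arrays are the lowest for Plxnb3 (6.87 to 7.02).

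Whether the left-right difference itself differed between groups of mice was tested with an interaction contrast. Against control mice it was called for 3 members, where 2.63% of all genes were called, and against resilient mice for 3 members, where 2.15% were. Both times the members were Sema5a, Plxnb3 and Unc5b, each with a lower left/right ratio in susceptible mice. Both contrasts use the same susceptible arrays. For Sema5a the difference in left minus right was -0.73 ± 0.09 against control (adjusted p = 1.5e-05) and -0.60 ± 0.08 against resilient mice (4.8e-05). For Unc5b it was -0.53 ± 0.09 (adjusted p = 0.0010) and -0.46 ± 0.08 (0.0016). For Plxnb3 it was -0.42 ± 0.10 (adjusted p = 0.0177) and -0.47 ± 0.09 (0.0030), and the call against control was lost without control left replicate 2 (adjusted p = 0.132) or control right replicate 1 (0.158). Nrp1 and Efna5 missed the threshold in both contrasts at the probes used (adjusted p from 0.0647 to 0.461). The second Nrp1 probe passed it in both, at -0.66 ± 0.11 (adjusted p = 4.6e-04) and -0.49 ± 0.10 (0.0046). With arrays scaled to one median instead of quantile normalized, the calls of Sema5a, Unc5b and Plxnb3 were lost in both contrasts. For Sema5a the adjusted p was then 0.119 against control and 0.433 against resilient mice. Plxnb3 was also lost against control with the deposited values, and against resilient mice in the last 8 arrays alone.

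Compared with control mice, 2 members were called in the susceptible left mPFC, both lower, where 4.24% of all genes were called. Plxnb3 was lower by 0.27 on the log2 scale (-0.27 ± 0.07, adjusted p = 0.0289). Epha7, an EphA receptor for which truncated forms are known in mouse, was lower by 0.32 (-0.32 ± 0.09, adjusted p = 0.0396). On the left its log2 signal was 9.07, 8.86 and 9.05 in susceptible, 9.24, 9.12 and 9.03 in resilient and 9.34 and 9.28 in control mice. On the right it was 9.21, 9.18 and 9.26 in susceptible, 9.31, 8.96 and 9.32 in resilient and 9.34 and 9.26 in control mice. Susceptible left arrays lay below every control array but overlapped the resilient left arrays. The second probe of Nrp1 was also lower there (-0.42 ± 0.08, adjusted p = 0.0020), beside 0.01 ± 0.07 at the probe used. The other detected probes of Epha7 gave 0.04 ± 0.08 and -0.06 ± 0.08, so the change was seen at 1 of 3 probes. The Epha7 call was lost without control left replicate 1 or 2 (adjusted p = 0.321 and 0.137) or susceptible left replicate 2 or 3 (0.172 and 0.0532), with the first and last 8 arrays of the table as a block (0.17), and under normexp, the deposited values or the mean over probes (0.109, 0.0535 and 0.215). The Plxnb3 call was lost without control left replicate 1 or 2 (0.129 and 0.237) or susceptible left replicate 1 or 2 (0.0742 and 0.108), and with the deposited values (0.0678).

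In the susceptible right mPFC 3 members were called against control, all higher, where 4.88% of all genes were called. Sema5a was higher by 0.61 ± 0.07 (adjusted p = 9.9e-07), with every susceptible right array above every control right array. Its second probe gave 0.59 ± 0.09 (adjusted p = 1.3e-04). Unc5b was higher by 0.32 ± 0.07 (adjusted p = 0.0043), a call lost when either control right array was left out (adjusted p = 0.0577 without replicate 1 and 0.0648 without replicate 2). Sema3f, a secreted semaphorin that signals through neuropilin-2 and is known in mouse to prune spines of cortical neurons, was higher by 0.30 ± 0.08 (adjusted p = 0.0294). Its log2 signal on the right was 7.85, 7.93 and 7.78 in susceptible, 7.81, 7.85 and 7.84 in resilient and 7.68 and 7.44 in control mice. The control right arrays lay below all stressed right arrays but apart from each other. Without control right replicate 2 the Sema3f change was 0.18 (adjusted p = 0.457), and it also missed the threshold without susceptible right replicate 1 or 2 (0.0611 and 0.122) and at a second probe (0.21 ± 0.07, adjusted p = 0.0727). The Sema3f call was also lost with the first and last 8 arrays of the table as a block (adjusted p = 0.135), under normexp (0.0574) and with the deposited values (0.052).

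In resilient mice 2 members were called against control on the left, both higher, where 2.7% of all genes were called. Sema4a, a transmembrane semaphorin that binds plexins of the B and D families, was higher by 0.27 ± 0.07 (adjusted p = 0.0326). On the left its log2 signal was 10.46, 10.62 and 10.50 in resilient, 10.22, 10.40 and 10.41 in susceptible and 10.27 and 10.24 in control mice. Resilient left arrays lay above all others of that side. Sema5a was higher by 0.26 ± 0.07 (adjusted p = 0.0241), while its second probe gave 0.21 ± 0.09 (adjusted p = 0.225). On the right 1 member was called, where 2.26% of all genes were, and it was again Sema5a, higher by 0.39 ± 0.07 (adjusted p = 9.9e-04) and by 0.40 ± 0.09 at the second probe (adjusted p = 0.0105).

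Both calls on the left of resilient mice were lost without either control left array, at adjusted p = 0.212 and 0.24 for Sema4a and 0.132 and 0.272 for Sema5a. They were also lost without resilient left replicate 2 (adjusted p = 0.159 for Sema4a and 0.0504 for Sema5a) or replicate 3 (0.077 and 0.139), and with the first and last 8 arrays of the table as a block (0.167 and 0.0761). Each comparison with control rests on the same 2 control arrays of that side, and these stood among the first 8 array columns, as did replicate 1 of every stressed group. On that replicate alone Sema5a differed from the control mean by 0.63 in the susceptible right, 0.38 in the resilient right, 0.22 in the resilient left and -0.14 in the susceptible left mPFC. These are single arrays and were not tested.

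**Figure D3:**
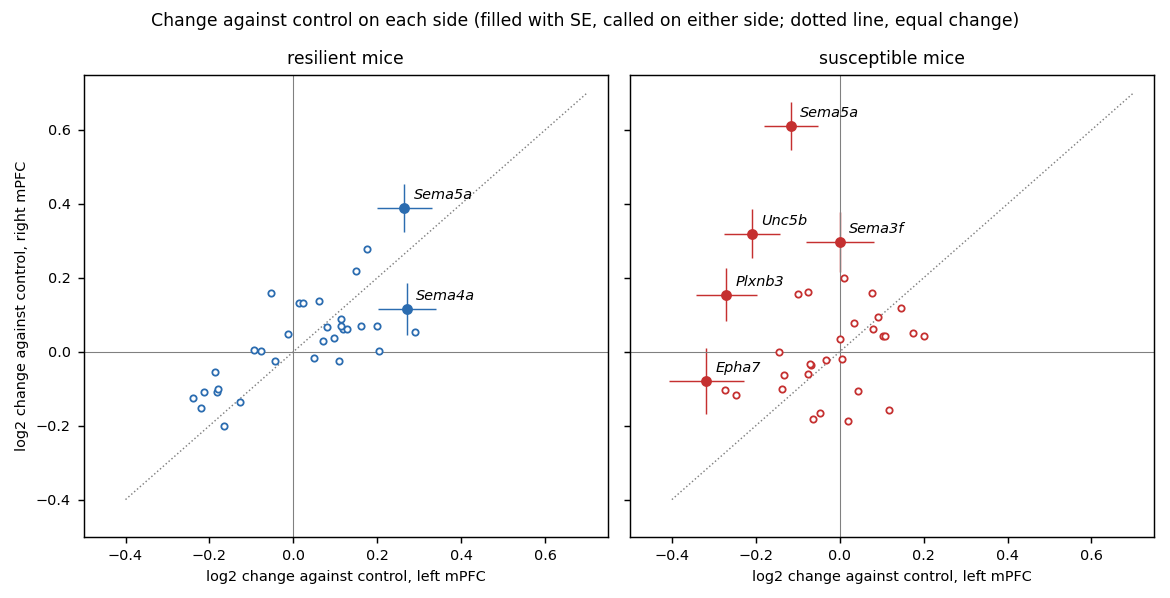
Log2 change against control in the left (horizontal) and right (vertical) mPFC for the 33 tested members in resilient and in susceptible mice, with filled points and standard errors for members called on either side and a dotted line at equal change. Sema5a lies at 0.26 and 0.39 in resilient mice and at -0.12 and 0.61 in susceptible mice.

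Susceptible and resilient mice differed on the left for 5 members, where 2.38% of all genes were called, and on the right for no member, where 0.831% were. An unadjusted p below 0.05 was reached by 12 members (36.4%) on the left and 4 (12.1%) on the right, and by 12.7% of all genes on either side. Lower in the susceptible left mPFC were Plxnb3 (-0.38 ± 0.06, adjusted p = 4.8e-04), Sema5a (-0.38 ± 0.06, 1.3e-04), Unc5b (-0.36 ± 0.06, 4.0e-04) and the ephrin Efnb3 (-0.29 ± 0.07, 0.0314). The second Nrp1 probe was lower too (-0.36 ± 0.07, adjusted p = 0.0022), beside -0.19 ± 0.06 (0.161) at the probe used. Higher was Slit2, a secreted repellent for axons bearing Robo receptors (0.26 ± 0.06, adjusted p = 0.0177).

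The left arrays of Slit2 read 9.63, 9.45 and 9.54 in susceptible, 9.27, 9.31 and 9.25 in resilient and 9.46 and 9.53 in control mice. Resilient arrays were thus the lowest, and susceptible arrays lay around the controls. Efnb3, a transmembrane ligand known in mouse as a midline barrier in the spinal cord, read 6.67, 6.74 and 6.74 on the left in susceptible, 6.93, 7.02 and 7.07 in resilient and 6.75 and 6.68 in control mice. Here the resilient left arrays were the highest, and susceptible and control arrays overlapped. The Efnb3 call was lost without any 1 of the 3 susceptible left arrays (adjusted p = 0.121, 0.0626 and 0.0715) or resilient left replicate 2 or 3 (0.108 and 0.142). It was also lost under normexp, with the deposited values and in the last 8 arrays alone. Raw signals of Efnb3 were low, at 95.2 to 135.1. The Slit2 call was lost without resilient left replicate 1 or 3 (adjusted p = 0.0506 and 0.0865) or susceptible left replicate 1 or 3 (0.122 and 0.057). In the last 8 arrays alone it was lost too.

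Known ligand and receptor pairs among the tested members did not all move together in susceptible mice. The pair Sema5a and Plxnb3 had left minus right values of -0.61 and -0.35, both called. Sema3a, a secreted repellent that binds Nrp1, had -0.15 ± 0.07 (adjusted p = 0.278) beside -0.24 for Nrp1. For Unc5b, at -0.45, the one tested netrin listed as its ligand was Ntn3 at -0.08 ± 0.07 (adjusted p = 0.63). The other Unc5 receptors tested had values of -0.05 (Unc5a) and 0.09 (Unc5c). Efna5, higher on the left, stood beside receptors of either sign, with Epha3 at 0.12 (adjusted p = 0.396), Epha5 at 0.10 (0.494) and Epha7 at -0.22 (0.114). Slit2 had 0.16 and its receptor Robo1 0.17 (adjusted p = 0.163 and 0.177). Efnb3 had -0.16 and its receptor Ephb1 -0.12 (0.285 and 0.405).

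The families were unevenly measured. Of 18 semaphorins 10 were tested, and besides Sema5a none was called between the sides, with Sema3a, Sema3f, Sema4a, Sema4b, Sema4f, Sema4g, Sema6b, Sema6d and Sema7a between -0.21 and 0.09 in susceptible mice. A second probe of Sema3f was called there (-0.23 ± 0.06, adjusted p = 0.02), beside -0.21 ± 0.07 (0.0975) at the probe used. Of 8 plexins 3 were tested, and Plxna2 and Plxnb1 lay at -0.10 and 0.04 (adjusted p = 0.455 and 0.807). Of 8 ephrins 6 were tested, with Efna1, Efna3, Efnb1 and Efnb2 between -0.02 and 0.10. Of 13 Eph receptors 5 were tested and none was called between the sides, the remaining one, Ephb6, a receptor without kinase activity, lying at -0.02. The vascular Robo4 lay at 0.02 and the netrin Ntn5 at 0.01. For Ntn3, Sema6b, Nrp1, Sema3f and Epha7 the detected probes of the gene differed in sign between left and right in at least 1 group of mice. In control mice the probes of Nrp1 read -0.05 and 0.22, those of Sema3f 0.09 and -0.11, and those of Epha7 0.02, -0.03 and 0.09, and none of these was called.

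In all, 10 members were called in at least 1 of the 11 comparisons and 23 in none, and 12.4% of all tested genes were called in at least 1. By role, 1 of 19 tested ligands was higher on the left and 1 on the right in susceptible mice, and 3 of 14 tested receptors were higher on the right and none on the left. The median left minus right was -0.02 for the ligands and -0.03 for the receptors.

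Members not detected on every array were left untested, and their probes stayed near background, with a highest raw signal of 141.9 among those detected on some arrays and 102.1 among those detected on none. The brightest tested member reached 1970.3, but some tested members were about as dim as the untested ones. Raw signals ran from 95.2 to 135.1 for Efnb3 and from 108 to 176.2 for Plxnb3. Untested were the semaphorins Sema3b, Sema3c, Sema3d, Sema3e, Sema3g, Sema4d, Sema6a and Sema6c, the plexins Plxna1, Plxna3, Plxna4, Plxnc1 and Plxnd1, and Nrp2, the co-receptor of Sema3f. So were Efna2, Efna4, Epha1, Epha2, Epha4, Epha6, Epha8, Epha10, Ephb3, Ephb4, Slit1, Slit3, Robo2, Ntn1, Ntn4, Unc5d, Unc5cl and Unc50. The last of these shares the family's letters and is not a netrin receptor. Sema3c, a secreted semaphorin detected on 15 arrays, was the one further member called when detection on 2 arrays was enough, with -0.38 ± 0.09 in the susceptible left mPFC against control (adjusted p = 0.0106).

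Other genes of the guidance pathway were counted against the 5.21% of all genes called between the sides in susceptible mice. Of 19 measured co-receptors and adhesion molecules (such as contactins, neural cell adhesion molecules and Flrt proteins) and of 30 measured cytoplasmic effectors of growth cone collapse none was called, with medians of 0.02 and -0.03. Of 14 other cues 3 were called. Bdnf (0.39 ± 0.07, adjusted p = 3.7e-04) and Reln (0.36 ± 0.06, 2.3e-04), a growth factor and the layering signal reelin, were higher on the left and Fgf10 on the right (-0.29 ± 0.06, 0.0050). Of 8 myelin-associated inhibitors and their receptors 3 were called. Rtn4rl1 (0.35 ± 0.07, adjusted p = 0.0031) and Tnfrsf19 (0.33 ± 0.06, 0.0011) were higher on the left. Mag, a myelin protein that blocks axon growth, was higher on the right (-0.55 ± 0.08, 1.5e-05). Against control, 3 of the 30 effectors were higher in the susceptible right mPFC, where 4.88% of all genes were called. They were the collapsin response mediators Dpysl5 (0.33 ± 0.08, adjusted p = 0.0126) and Dpysl3 (0.28 ± 0.08, 0.0369) and the kinase Gsk3b (0.30 ± 0.08, 0.0185). Called lower on that side were Reln, Rtn4rl1 and Tnfrsf19. On the susceptible left, where 4.24% of all genes were called, Flrt2 and Mag were lower. Dpysl5 was also higher in resilient mice on the left (0.41 ± 0.08, 0.0037) and right (0.42 ± 0.08, 0.0029), where 2.7% and 2.26% of all genes were called.

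Markers of several cell types also differed between the sides in susceptible mice, some higher on the right and others on the left. Of 14 measured oligodendrocyte markers 14 were higher on the right in susceptible mice, with a median of -0.60. Their summed signal was 29370 to 29810 in susceptible left and 44600 to 44990 in susceptible right mPFC, 44700 to 47400 in resilient left, 44860 to 45930 in resilient right, 42240 to 42710 in control left and 38900 to 38970 in control right. The lowest group was the susceptible left mPFC. All 14 were detected on every array. Mag is among them and was also counted with the myelin-associated inhibitors. Oligodendrocyte precursor markers gave 0 of 4 calls, with a median of -0.05.

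Of 10 measured layer 6 and 6b markers 5 were higher on the right in susceptible mice and none on the left, with a median of -0.27. Their summed signal was 16060 to 17130 in susceptible right, 11700 to 12400 in susceptible left, 15360 to 15500 in resilient left, 15730 to 16130 in resilient right, 12570 to 12930 in control left and 11990 to 12220 in control right. Resilient arrays of both sides thus lay with the susceptible right arrays above the controls. Striatal neuron markers were called higher on the right for 4 of 4, with sums of 2368 to 2462 in susceptible left and 3079 to 3183 in susceptible right mPFC, 2964 to 3264 in resilient and 2417 to 2513 in control mice. Resilient sums above the control sums were thus seen for the layer 6 and 6b, striatal and oligodendrocyte markers alike.

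Markers with the opposite direction were those of layer 2/3, with 3 of 5 higher on the left (median 0.69, sums of 2530 to 2598 on the left and 1593 to 1697 on the right), and of meningeal fibroblasts, with 5 of 5 (median 0.65, sums of 1969 to 2061 and 1294 to 1350). Endothelial and astrocyte markers gave 0 of 6 calls each, with medians of 0.10 and 0.11. Microglial markers gave 1 of 7, neuronal markers 0 of 5, layer 5 markers 1 of 7 and interneuron markers 5 of 9, of which 4 were higher on the left. The called interneuron markers include Reln, which was also counted with the other cues. The part of the marker shifts in the values of Sema5a, Plxnb3, Unc5b, Nrp1 and Efna5 was not tested.

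**Figure D4:**
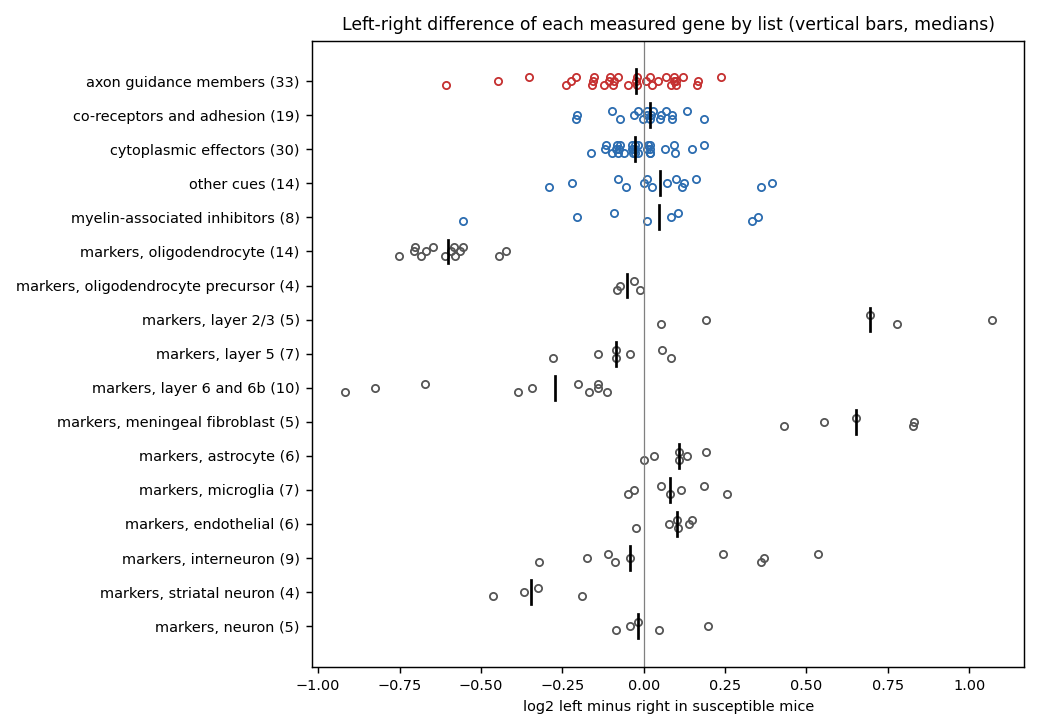
Log2 left minus right in susceptible mice for each measured gene of the axon guidance families, of other guidance gene lists and of cell type markers, with vertical bars at the medians and the number of genes in parentheses. The axon guidance genes spread around a median of -0.02, while oligodendrocyte markers lie around -0.60 and meningeal markers around 0.65.

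The counts depended on the scaling of the arrays. When arrays were scaled to one median instead of being quantile normalized, Sema5a was the 1 member called between the sides in susceptible mice, and calls over all genes went from 439 to 36. The left-right differences of Unc5b and Plxnb3 then had adjusted p of 0.0818 and 0.117. None of the 24 member calls changed direction under any alternative run.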

How the data were processed

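RNA of the left and right mPFC was measured on 16 one-colour arrays. The authors read them with GenomeStudio 1.0.6 and deposited for each probe an average signal, an intensity on a linear scale from 51.9 to 37310 with no background subtracted, and a detection score. The deposited score is a fraction from 0 to 1 that is high for bright probes, so detection p was taken as 1 minus it. The authors also deposited values on a log2 scale made with lumi, whose version and normalization are not given in the sources used here, with a scale narrower at low signals. These were used as an alternative.

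Here the log2 of the raw signal was quantile normalized (limma 3.58.1, R 4.3.3). Probes needed a detection p of 0.05 or less on all 16 arrays (11922 of 25697 probes), and the detected probe with the highest mean represented a gene. Symbols come from the platform annotation, where 23978 probes carry 1 symbol, 1719 none and 0 several. One model with 6 groups was fitted (lmFit and eBayes, 10 residual degrees of freedom), 11 comparisons were taken, and p-values were adjusted by Benjamini-Hochberg over the 8419 genes of each comparison, with a threshold of 0.05. Values are log2 differences ± the standard error of the fit. Probe-level values come from the same model over all detected probes. Precision is limited by the number of arrays. The procedure was tested on simulated data. Plots used matplotlib 3.10.9 (Python 3.11.15).

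Named were members called in any comparison, their ligands or receptors, the members with extreme left-right values, and members whose probes disagreed. Sema3c and the genes named for the other lists were chosen after their values were seen. The members, the gene lists and the marker lists were chosen with earlier results of these data known. Alternatives were median scaling, cyclic loess, normexp background correction, the deposited log2 values, looser detection filters, the mean over probes, array weights, a trended robust fit, only the groups compared, the replicate number or the first and last 8 arrays of the table as a block, either set of 8 arrays alone, and leaving out each array. The table is not stated to follow chips or days.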

Additional observations from a re-analysis of the deposited data

Results flagged for a closer look

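The left-right difference of 3 members differed between groups of mice by a test of the difference itself (limma interaction contrast, adjusted over 8419 genes). Against control mice, left minus right in susceptible mice was lower by -0.73 ± 0.09 for Sema5a (adjusted p = 1.51e-05), by -0.53 ± 0.09 for Unc5b (0.00103) and by -0.42 ± 0.10 for Plxnb3 (0.0177). Against resilient mice it was lower by -0.60 ± 0.08 for Sema5a (adjusted p = 4.79e-05), by -0.46 ± 0.08 for Unc5b (0.00156) and by -0.47 ± 0.09 for Plxnb3 (0.00299). All 3 susceptible left arrays lay below all 3 susceptible right arrays for each gene. Both contrasts share the susceptible arrays. None of these calls was kept when arrays were scaled to one median instead of being quantile normalized (Sema5a, adjusted p = 0.119 against control and 0.433 against resilient mice). The Plxnb3 call was also lost against control with the deposited values, and against resilient mice in the last 8 arrays alone.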

How the results depend on the processing

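The counts of called members are given here for susceptible left against right (5), its difference from control (3) and from resilient mice (3), susceptible against control on the left (2) and right (3), resilient against control on the left (2) and right (1), and susceptible against resilient mice on the left (5) and right (0). Median scaling gave 1, 0, 0, 0, 0, 0, 0 and 0 for all but the last, and moved the median of all genes by -0.20, -0.14, -0.17 and -0.12 in these comparisons with control. The deposited values gave 0 for susceptible against control on the left and 1 (Sema5a) for susceptible against resilient on the right. Normexp, no detection filter, the mean over probes, array weights and the table block gave 0, 1, 1, 5 and 1 for resilient against control on the left, where the table block called Ntn5 and neither Sema4a nor Sema5a. On the right that comparison gave 2 under cyclic loess, array weights and the table block. Susceptible against control on the left gave 5 with array weights and 1 with the table block. The difference from resilient mice gave 5 with the mean over probes and with the table block. Only the groups compared, and the last 8 arrays alone, gave 3 for susceptible left against right, and the last 8 gave 3 for susceptible against resilient on the left.

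No source says whether same-numbered arrays come from the same mice. The labels give 7 mice for every array, and the methods give 7 susceptible mice in all. If the labels count the mice of a pool, all susceptible arrays held RNA of the same 7 mice. Deviations of same-numbered left and right arrays from their group means were not all correlated above 0.1 (correlations 0.0131 and 0.0131 in control, 0.341, -0.02 and 0.0594 in resilient, 0.193, 0.174 and 0.0924 in susceptible mice), so the numbers were not taken to pair the arrays. In control mice, with 2 arrays per side, both values are equal by construction. In susceptible mice every array correlated best with its own number. The 6 unlike pairs were negative there, which centring on group means favours when like pairs are positive. Same-numbered arrays of different mice also correlated in part. Resilient right arrays gave 0.222, 0.188 and 0.103 with susceptible left and 0.221, 0.179 and 0.0804 with susceptible right arrays. Resilient left arrays gave 0.248, 0.0195 and 0.0346, and 0.236, 0.0237 and -0.0546, in that order. These are hints from the data and not the design, and their source was not tested. With the replicate block the counts were 5 for the difference from resilient mice and 4 for resilient against control on the left, and elsewhere equal to those above.

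Leaving out 1 array at a time gave 3 to 5 members for susceptible left against right, 0 to 0 in resilient and control mice, 2 to 3 and 3 to 4 for its differences from control and resilient mice, 0 to 2 and 1 to 3 for susceptible against control on the left and right, 0 to 3 and 1 to 2 for resilient against control, and 3 to 4 and 0 to 0 for susceptible against resilient mice. A lone remaining array was assumed to vary like the other groups. Over the 24 named changes, 379 of 467 alternative values kept the call, 88 lost it and 0 reversed. Where a call was lost, the cause was not tested. Signals close to background limit the 32 untested members, and also dim tested members such as Efnb3 and Plxnb3.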
